A study of Drosophila melanogaster with 16 samples.

Results

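The genes for proteins of the cytosolic ribosome were followed in the body-wall muscle of Drosophila ras1G12V;csk-/- larvae. Members were all genes of the count table whose current FlyBase symbol starts with RpL, RpS or RpLP followed by a number. The rule took 92 symbols, of which 87 had a row among the 15682 genes of the table, 51 for the large and 36 for the small subunit. The other 5 (RpS10b, RpL27A, RpL31, RpL19 and RpS12) were not analysed here, because their current identifiers have no row. All animals carried GFP-labelled clones in the eye that expressed UAS-ras1G12V and were homozygous for a csk stop mutation on an FRT82B chromosome, made by eyeless-driven FLP recombination. Every group therefore had eye tumours, there was no tumour-free group, and the muscle was not the tissue targeted for recombination. CD animals were fed a control diet with 0.15 M sucrose and sampled at day 8. HSD animals were fed a high-sugar diet with 1.0 M sucrose and sampled at day 12 (Early), day 14 (Mid) and day 16 (Late). These days are those of the labels, and the study gives an earlier day for Early muscle in its stainings. The 16 libraries, 4 per group, each came from the dissected muscle of pooled animals, and each comparison with CD changed both the diet and the age. The study's methods say in general terms that experiments were repeated independently, but the labels do not say which libraries came from separate cultures, so the p-values measure the spread between libraries, which may be technical.

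Each cytosolic ribosome is built from a small subunit, which reads the mRNA, and a large subunit, which joins amino acids and carries the stalk that recruits the elongation factors. Its proteins are needed in nearly equal amounts, and their mRNAs are among the most abundant of growing cells. In Drosophila most are encoded by a single gene, and loss of one copy of many of them gives the slow-growing Minute phenotype. A small number are duplicated, and several of the duplicates are known for expression in the germline.

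Of the 87 members, 84 had enough counts to be tested. RpL15, a gene that every cell uses, was listed at 0 in every library and is given no value here. RpS28a had 23 counts and RpS28-like had 70 counts over all 16 libraries, and both had 0 counts in at least 3 of the 4 Mid libraries, where 3 counts would correspond to between 0.107 and 0.132 CPM, the normalised read count. Library totals ran from 9666672 to 28698585 counts. CPM are counts scaled to a common library size, here corrected with TMM, a factor that sets the bulk of genes level between libraries. The factor was lowest in Early replicate 1 (0.629) and between 0.818 and 1.28 in the other libraries. In the list of muscle identity genes, the summed level was 40624 ± 16753 CPM in CD, 123245 ± 53617 CPM at Early, 39844 ± 14084 CPM at Mid and 18395 ± 6299 CPM at Late (SD, n = 4), and none of its 17 genes was at 0 in all libraries.

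Transcripts of the family made up a large part of each library. The share of gene counts that fell on the 87 members was 8.49, 9.65, 12.6 and 10.1% in the CD libraries, 10.7, 11.4, 11.1 and 12.6% at Early, 12.3, 11.9, 12.2 and 12.2% at Mid and 11.1, 11, 10.3 and 12.0% at Late. The CD libraries spread from below the lowest library of the other groups to the level of the highest, and the Mid libraries lay closest together. The mean share was 10.2 ± 1.71% in CD, 11.5 ± 0.805% in Early, 12.2 ± 0.168% in Mid and 11.1 ± 0.682% in Late (SD, n = 4). A share depends on what else is in the library, and the 20 genes outside the family with the most counts took 21.8 ± 3.14% of the counts at Early but 8.70 ± 0.725% at Late (SD, n = 4). Without those 20 genes in the denominator, the mean share was 12.1 ± 1.95% in CD, 14.7 ± 1.04% in Early, 13.9 ± 0.617% in Mid and 12.2 ± 0.789% in Late (SD, n = 4).

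The level of the family relative to the bulk of genes was taken as the median over the 84 tested members of log2(CPM + 0.5) minus the CD mean of each gene. It was −0.30, −0.16, 0.26 and 0.17 in the CD libraries, 0.72, 0.32, 0.42 and 0.62 at Early, 0.28, 0.084, 0.31 and 0.25 at Mid and −0.064, −0.19, −0.066 and 0.015 at Late. All Early libraries lay above all libraries of CD, Mid and Late, narrowly in the case of Early replicate 2 over Mid replicate 3, and all Late libraries lay below all Mid libraries. CD replicates 1 and 2 lay below CD replicates 3 and 4, so that CD overlapped both Mid and Late. The levels of 74 of the 84 tested members were highest in mean at Early, and those of 51 were lowest in mean at Late.

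**Figure D1:**
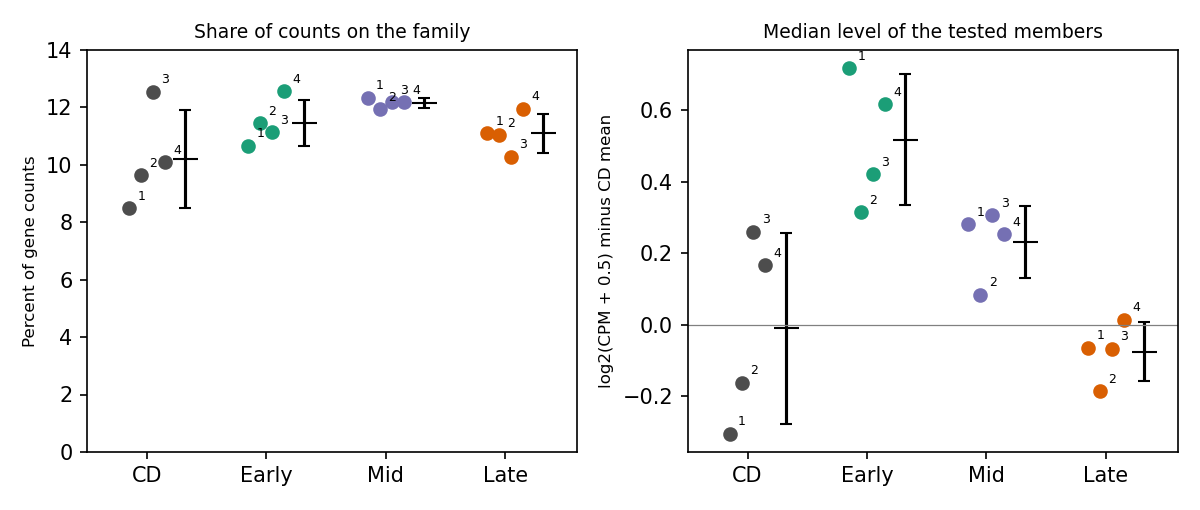
Share of gene counts on the 87 ribosomal protein genes in percent (left) and median level of the 84 tested members as log2(CPM + 0.5) minus the CD mean (right) in each of the 16 libraries. Points carry the replicate number and bars show mean ± SD of 4 libraries. The median level was highest at Early and lowest at Late among the HSD stages, whereas the shares of Early (10.7 to 12.6%) and Late (10.3 to 12.0%) overlapped.

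Early in HSD, ribosomal protein transcripts were higher than in CD. Of the 84 tested members, 34 rose and 0 fell in edgeR's quasi-likelihood test at a Benjamini-Hochberg adjusted p under 0.05, where 6.44% of all 11607 genes tested rose and 2.70% fell. The median log2 fold change was 0.53 over the members and −0.014 over all genes tested. All 78 members other than 6 low paralogues had a log2 fold change above 0, from 0.033 to 0.77. Both subunits took part, with 21 of 50 large subunit members (median 0.53) and 13 of 34 small subunit members (median 0.52). The largest rises were those of RpL13 (0.77 ± 0.19, SE, adjusted p = 0.0222) and RpL17 (0.76 ± 0.22, adjusted p = 0.0403), both large subunit proteins named here after their values were seen. Other large subunit members called included RpL3, RpL4, RpL5, RpL6, RpL7, RpL7A, RpL11, RpL12, RpL22, RpL23A, RpL26, RpL27, RpL28, RpL35, RpL35A, RpL37-1, RpL40 and RpLP0, and the small subunit members were RpS2, RpS3, RpS3A, RpS4, RpS5a, RpS6, RpS7, RpS13, RpS14a, RpS19a, RpS20, RpS24 and RpS27. In 37 members every Early library exceeded every CD library, as was the case in 9.16% of all genes tested.

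The calls at Early rested on few libraries and on the scaling. Without Early replicate 1 or without Early replicate 4, edgeR called 0 members (40 and 34 at an unadjusted p under 0.05), and without Early replicate 3 it called 2. It called 18, 7, 12 and 20 without CD replicates 1, 2, 3 and 4 in turn. A fit to the 8 CD and Early libraries alone called 0 (38 at an unadjusted p under 0.05). The median log2 fold change stayed between 0.38 and 0.56 as each library was left out in turn. With library totals alone, 0 members were called (16 at an unadjusted p under 0.05; DESeq2's Wald test with its own scaling called 54), and the median was 0.16 while that of all genes tested was −0.36. Early replicate 1, the library with the highest family level, also had the highest summed level of the muscle identity genes (200075 CPM) and of the epidermis and cuticle genes (168692 CPM), against 75820.0 to 113015 CPM and 64908 to 98978 CPM in the other Early libraries. Of 17 muscle identity genes, 10 rose at Early (median log2 fold change 1.51), and the part of these levels in the result was not tested. In bulk tissue, fewer cells of a type and less RNA per cell cannot be told apart.

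At Mid, 3 members were higher than in CD and 0 were lower, where 4.37% of all genes tested rose and 1.95% fell (26 members at an unadjusted p under 0.05; DESeq2 called 15 higher and 1 lower). The 3 were RpL24-like, RpL3 and RpL4, and without CD replicate 2, CD replicate 3, Mid replicate 1 or Mid replicate 4 no member was called (17, 28, 23 and 21 at an unadjusted p under 0.05; 1 was called without Mid replicate 3). The median was 0.21, with 67 members above 0 and 17 below. At Late, 2 members were higher, RpL24-like and RpL7-like, and 1 was lower, RpS15Ab, where 14.0% of all genes tested rose and 7.70% fell. The median was −0.097 over the members and −0.079 over all genes tested, with 28 members above 0 and 56 below. The count at Late turned with the setting. Without CD replicate 1 it was 1 higher and 10 lower, and without CD replicate 3 it was 1 higher and 0 lower. Without Late replicate 4 it was 1 higher and 4 lower, and without Late replicate 2 or Late replicate 3 it was 0 (3 each at an unadjusted p under 0.05). With library totals alone it was 9 higher and 0 lower, where 21.3% of all genes tested rose and 4.28% fell. The median was then 0.12 over the members and 0.13 over all genes tested.

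Between Early and Late, most of the family fell relative to the bulk of genes. Of the 84 tested members, 68 were lower at Late than at Early and 0 were higher, where 10.1% of all genes tested were lower and 10.1% higher. The median log2 fold change was −0.66, against −0.048 over all genes tested. In 72 members every Late library was under every Early library, as was the case in 11.8% of all genes tested. The called members fell by 0.40 (RpL28) to 0.93 (RpL34a) on the log2 scale, in 40 of 50 large subunit and 28 of 34 small subunit members. Of the 34 members that rose from CD to Early, 31 were among those that fell from Early to Late; the 2 comparisons share the Early libraries. Muscle identity genes also fell between these stages, 16 of 17 of them, with a median of −2.40, and so did 9 of 16 epidermis and cuticle genes (median −1.79, summed level 101244 ± 47282 CPM at Early and 11160.0 ± 3936 CPM at Late, SD, n = 4) and 7 of 8 tested salivary gland genes (summed level 6.79 to 1589 CPM at Early and 5.64 to 12.3 CPM at Late). Haemocyte genes (3 higher and 0 lower, median 0.71), fat body genes (2 and 0, median 0.35) and imaginal disc and tumour genes (1 and 0, median 0.53) went the other way. Gut genes had 1 higher and 2 lower (median −2.69), and testis and germline genes 0 called (median −0.57). Trachea and nervous system genes had medians of −0.061 and −0.0032. None of these lists had a gene at 0 in all libraries, and their part in the family's fall was not tested.

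With library totals alone, none of the 68 was called. 0 members were lower at Late than at Early, where 4.34% of all genes tested were lower. 3 members were higher, where 37.1% of all genes tested were higher: RpL24-like, RpL7-like and RpLP0-like, whose log2 fold changes were also above 0 with TMM. The median of the members was then −0.07. That of all genes tested was 0.51, so that the family lay 0.58 below it on the log2 scale, against 0.61 below it with TMM. Across the other scalings, filters and tests, the family lay 0.61 to 0.72 below the median of all genes. Without a single library, the count of lower members was 15 without Early replicate 4, 15 without Late replicate 3, 18 without Late replicate 2, 22 without Early replicate 1, 22 without Late replicate 1, 34 without Late replicate 4 and 44 without Early replicate 3, and none was higher.

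**Figure D2:**
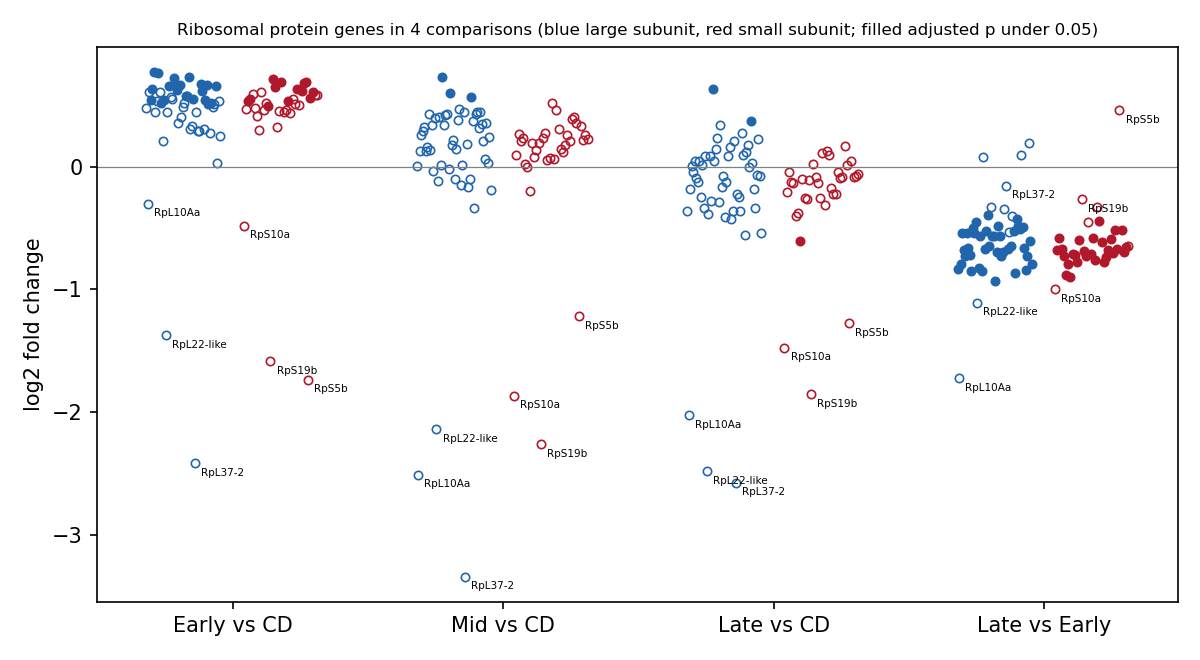
Log2 fold change of the 84 tested ribosomal protein genes in 4 comparisons, large subunit in blue and small subunit in red, each point a gene and filled where the adjusted p of edgeR was under 0.05. The family lay above 0 at Early and below 0 from Early to Late with TMM scaling (with library totals alone, 0 members were called at Early and 0 lower from Early to Late), and 6 paralogues with their names beside them lay apart.

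The 3 stalk proteins recruit the elongation factors to the large subunit. RpLP0 was at 1573, 1649, 2015 and 2010.3 CPM in the CD libraries, at 3091, 2471, 2755 and 3127 CPM at Early, at 2350.1, 1883, 2573 and 2452 CPM at Mid and at 1677, 1615, 1717 and 1885 CPM at Late. Early replicates 1, 3 and 4 lay above all libraries of the other groups, Early replicate 2 lay within the range of Mid, and the Late libraries were all under the lowest Early library. RpLP0 rose at Early by 0.66 ± 0.15 (SE, adjusted p = 0.0149) and fell from Early to Late (−0.73 ± 0.15, adjusted p = 0.00326).

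RpLP1 was at 1493, 1609.8, 2282 and 2120.2 CPM in the CD libraries, at 3175, 2252, 2568 and 2854 CPM at Early, at 2414, 1969.5, 2287 and 2218 CPM at Mid and at 1722, 1626, 1965 and 1803 CPM at Late. CD replicate 1 was the lowest of all libraries and Early replicate 1 the highest, and Early replicate 2 lay within the ranges of CD and Mid. The rise at Early missed the threshold (0.53 ± 0.16, adjusted p = 0.0562), and the fall from Early to Late passed it (−0.61 ± 0.16, adjusted p = 0.0171).

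RpLP2 was at 1313, 1757, 2790.3 and 2483 CPM in the CD libraries, at 2988, 2170.2, 2062 and 2712 CPM at Early, at 1882, 1591, 2021 and 1819.9 CPM at Mid and at 1562, 1207, 1279 and 1679 CPM at Late. CD ranged from the lower part of the Late values to the upper part of the Early ones. RpLP2 was among the 3 members with the smallest log2 fold change at Late against CD of those with a mean of at least 100 CPM (−0.54 ± 0.22, adjusted p = 0.0934), and it fell from Early to Late (−0.79 ± 0.22, adjusted p = 0.0199).

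RpS6 is the small subunit protein that S6 kinase phosphorylates downstream of Tor. RpS6 was at 1306, 1359, 1695 and 1689 CPM in the CD libraries, at 2359.6, 1928, 2233 and 2398 CPM at Early, at 1859, 1708, 2037 and 2022 CPM at Mid and at 1592, 1442, 1676 and 1534 CPM at Late. The lowest Early library lay above all CD and Late libraries but below Mid replicates 3 and 4. RpS6 rose at Early (0.56 ± 0.14, adjusted p = 0.0211), its log2 fold change at Late was 0.046 ± 0.14 (adjusted p = 0.820), and it fell from Early to Late by 0.51 ± 0.14 (adjusted p = 0.0150), with a value of 0.054 under library totals alone.

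RpL40 and RpS27A are made as fusions with ubiquitin, which is cut off after translation. RpL40 was at 899.7, 1005, 1114 and 1127 CPM in the CD libraries, at 1689, 1434, 1473 and 1768 CPM at Early, at 1378, 1211, 1428 and 1349 CPM at Mid and at 1092, 1018, 1124 and 1202 CPM at Late. The Early libraries stood above all the others. RpL40 rose at Early (0.62 ± 0.13, adjusted p = 0.0107) and fell from Early to Late (−0.52 ± 0.13, adjusted p = 0.00940), with a value of 0.049 under library totals alone.

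RpS27A was at 1113, 1498, 1452 and 1381 CPM in the CD libraries, at 1967, 1484, 1816 and 2123 CPM at Early, at 1473, 1341, 1676 and 1536 CPM at Mid and at 1222, 1046, 1222 and 1345 CPM at Late. Early replicate 2 lay among the CD and Mid libraries, and the rise at Early missed the threshold (0.44 ± 0.15, adjusted p = 0.0776). The Late libraries were all under the lowest Early library (−0.61 ± 0.15, adjusted p = 0.00995).

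Among members with a mean of at least 100 CPM, the smallest log2 fold changes at Late against CD were those of RpL41, RpLP2 and RpL36, and the largest those of RpL24-like, RpL3 and RpL4. RpL41 encodes a very short large subunit protein. RpL41 was at 1512, 2655, 3122 and 2264 CPM in the CD libraries, at 3415, 2524, 2295 and 3593 CPM at Early, at 1913, 1542, 2273 and 1829 CPM at Mid and at 1647, 1444, 1566 and 1823 CPM at Late. CD replicate 1 lay with the Late libraries and the other CD libraries above them. The fall from Early to Late passed the test (−0.87 ± 0.22, adjusted p = 0.0121) and the difference from CD at Late did not (−0.56 ± 0.22, adjusted p = 0.0814).

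RpL36 was at 922, 1325, 1959.6 and 1999 CPM in the CD libraries, at 2270.0, 1683, 1568 and 2136 CPM at Early, at 1538, 1266, 1457 and 1343 CPM at Mid and at 1197, 1036, 1078 and 1316 CPM at Late. CD covered nearly the whole range of the 16 libraries. RpL36, also of the large subunit, had −0.42 ± 0.22 at Late against CD (adjusted p = 0.192) and fell from Early to Late (−0.73 ± 0.22, adjusted p = 0.0302).

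RpL3, which lines the centre where peptide bonds are made of the large subunit, was one of the members called at Mid. RpL3 was at 2457, 1889, 2547 and 2566 CPM in the CD libraries, at 4266, 3213, 4159.6 and 3378 CPM at Early, at 3863, 3183, 3629.7 and 3644 CPM at Mid and at 3010.4, 2871, 3247 and 2833 CPM at Late. All HSD libraries lay above all CD libraries. RpL3 rose at Early (0.67 ± 0.15, adjusted p = 0.0154) and at Mid (0.60 ± 0.15, adjusted p = 0.0312), and had 0.34 ± 0.15 at Late (adjusted p = 0.122).

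RpL4 was at 1774, 1510.4, 1743 and 2109 CPM in the CD libraries, at 3056, 2394, 3053 and 2874 CPM at Early, at 2765, 2249, 2739 and 2831 CPM at Mid and at 2244, 2085, 2169 and 2128 CPM at Late. For RpL4, a large subunit protein at the peptide exit tunnel, only CD replicate 4 overlapped the HSD libraries. It rose at Early (0.67 ± 0.14, adjusted p = 0.0115) and at Mid (0.57 ± 0.14, adjusted p = 0.0305), and neither its change at Late (0.27 ± 0.14, adjusted p = 0.191) nor that from Early to Late (−0.40 ± 0.14, adjusted p = 0.0592) passed the test.

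Of the 16 tested members that were not called from Early to Late, 6 were the low paralogues described below. RpL24-like, RpL7-like and RpLP0-like had log2 fold changes above 0. The remaining 7 were RpL3, RpL4, RpL37-1, RpL38, RpS9, RpS21 and RpS26, with log2 fold changes from −0.65 (RpS9, adjusted p = 0.0512) to −0.33 (RpL3).

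The proteins encoded by RpL24-like, RpL7-like and RpLP0-like are relatives of yeast Rlp24, Rlp7 and Mrt4, which bind the large subunit while it is assembled and are not part of the finished ribosome. They are members by their symbols. RpL24-like was also among those with the largest log2 fold change at Late. RpL24-like was at 140.2, 162, 216 and 216 CPM in the CD libraries, at 302, 238, 287 and 246 CPM at Early, at 354, 333, 248 and 284 CPM at Mid and at 259, 260.0, 348 and 269 CPM at Late. All HSD libraries lay above all CD libraries. RpL24-like rose at Mid (0.73 ± 0.17, adjusted p = 0.0243) and at Late (0.63 ± 0.17, adjusted p = 0.0158), and its difference at Early missed the threshold (0.55 ± 0.17, adjusted p = 0.0566). The call at Late was lost without CD replicate 2, Late replicate 2 or Late replicate 3, with upper-quartile scaling and in a fit to the 8 libraries alone.

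Its ribosomal counterpart RpL24, a protein of the finished large subunit, was lower at Late than at Early. RpL24 was at 1018, 1012, 1594 and 1552 CPM in the CD libraries, at 2603, 1638, 1578 and 1834 CPM at Early, at 1419, 1153, 1391 and 1272 CPM at Mid and at 1098, 966, 1079 and 1109 CPM at Late. RpL24 fell from Early to Late (−0.85 ± 0.19, adjusted p = 0.00703), while RpL24-like had 0.082 ± 0.17 (adjusted p = 0.773). The log2 ratio of RpL24-like to RpL24, which no scaling factor enters apart from the 0.5 CPM added, was −2.86, −2.64, −2.88 and −2.84 in CD, −3.10, −2.78, −2.46 and −2.90 in Early, −2.0, −1.79, −2.48 and −2.16 in Mid and −2.08, −1.89, −1.63 and −2.04 in Late. Every Mid and Late library exceeded the highest CD library, and CD and Early overlapped. RpL24-like took 12.6% of the counts of the pair in CD, 12.3% in Early, 18.7% in Mid and 21.1% in Late.

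RpL7-like was at 70.8, 95.4, 90.4 and 69.2 CPM in the CD libraries, at 87.0, 97.2, 110.2 and 98.8 CPM at Early, at 124, 105, 109 and 105 CPM at Mid and at 95.7, 100.5, 121 and 103 CPM at Late. Early replicate 1 lay within the range of CD, and the other HSD libraries exceeded the highest CD value. RpL7-like was higher at Late (0.37 ± 0.13, adjusted p = 0.0492), just inside the threshold, and 16 of 18 alternatives lost the call without a change in sign. Its log2 ratio to RpL7 was −4.21 ± 0.35 in CD, −4.44 ± 0.22 in Early, −4.08 ± 0.15 in Mid and −3.84 ± 0.099 in Late (SD, n = 4), and CD overlapped every stage.

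RpLP0-like was at 25.2, 31.7, 40.9 and 31.7 CPM in the CD libraries, at 34.4, 33.6, 26.2 and 38.1 CPM at Early, at 24.0, 30.4, 39.3 and 38.0 CPM at Mid and at 38.8, 37.6, 33.9 and 41.0 CPM at Late. The groups overlapped, and no comparison passed the test (0.23 ± 0.18 at Late, adjusted p = 0.407). The log2 ratio of RpLP0-like to RpLP0 was −5.94, −5.68, −5.60 and −5.97 in CD, −6.47, −6.18, −6.69 and −6.34 in Early, −6.58, −5.93, −6.02 and −5.99 in Mid and −5.42, −5.41, −5.64 and −5.50 in Late. Every Early library was under the lowest CD library, and all Late libraries above all Early and Mid libraries.

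**Figure D3:**
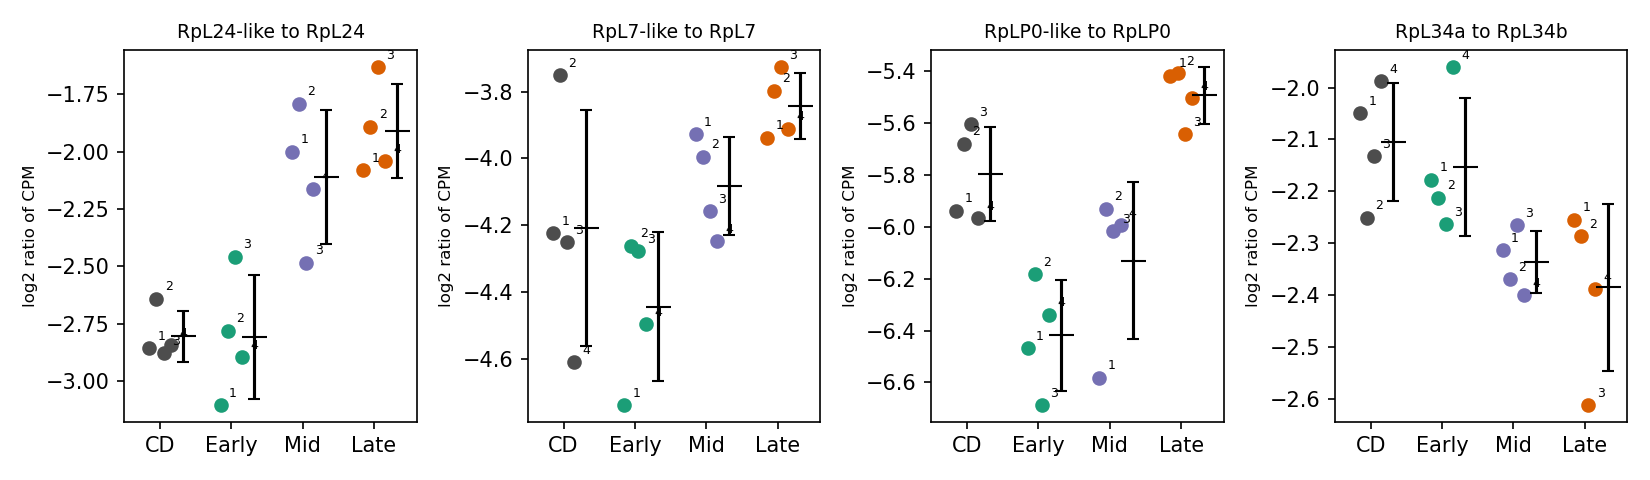
Log2 ratio of CPM of a duplicate to its partner (0.5 CPM added to both) in each library for RpL24-like, RpL7-like, RpLP0-like and RpL34a, with the replicate number at each point and mean ± SD of 4 libraries. The ratio of RpL24-like to RpL24 was above all CD libraries at Mid and Late. That of RpL34a to RpL34b was below all CD libraries at Mid and Late, narrowly for Late replicate 1 and Mid replicate 3 against CD replicate 2.

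Of 13 duplicate pairs, 5 moved by more than 1 on the log2 scale from CD to Early, 5 to Mid and 4 to Late, all of them pairs with one of the low paralogues described next. These ratios rest on a few CPM with 0.5 CPM added: with 5 CPM added, the count at Late was 0, and each of these pairs overlapped CD at every stage except RpL37-2 and RpL37-1 at Mid. The log2 ratio of RpS14b to RpS14a was −1.76 ± 0.27 in CD and −1.74 ± 0.059 at Late (SD, n = 4); the genes are near-identical neighbours on the X, so reads may have been split between them and the ratio is uncertain. That of RpL34a to RpL34b was −2.11 ± 0.11 in CD, −2.15 ± 0.13 in Early, −2.34 ± 0.060 in Mid and −2.39 ± 0.16 in Late. All Mid and Late libraries lay below all CD libraries, but narrowly. Late replicate 1 was at −2.2545 and Mid replicate 3 at −2.2651, against −2.2508 in CD replicate 2. RpL34a fell from Early to Late (−0.93 ± 0.22, adjusted p = 0.00910), as did RpL34b (−0.70 ± 0.20, adjusted p = 0.0237).

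RpS15Ab, a duplicate of RpS15Aa with a far lower level, was the single member lower at Late than in CD. RpS15Ab was at 40.6, 43.2, 59.7 and 55.1 CPM in the CD libraries, at 75.8, 58.1, 48.6 and 61.2 CPM at Early, at 37.2, 36.5, 53.6 and 45.3 CPM at Mid and at 38.4, 28.2, 27.5 and 36.2 CPM at Late. All Late libraries lay below all CD libraries. RpS15Ab had a log2 fold change of −0.61 ± 0.18 (adjusted p = 0.0274), and the call was lost without CD replicate 3, Late replicate 2 or Late replicate 3 and with library totals alone. RpS15Aa had −0.38 ± 0.17 (adjusted p = 0.135), and the log2 ratio of the pair was −4.75 ± 0.11 in CD and −4.99 ± 0.13 at Late (SD, n = 4).

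The paralogues that departed from the family were RpL10Aa, RpL22-like, RpL37-2, RpS5b, RpS10a and RpS19b, defined by a log2 fold change more than 1 from the median of the tested members in any of the 4 comparisons. These values chose them and are given as a description. The member nearest inside the limit at Late against CD was RpS5b, 1.18 from the median, and the nearest outside was RpL24-like, 0.73 from it. All 6 had a mean below 3.1 CPM over the libraries, against at least 34.1 CPM for every other tested member. RpL22-like, RpS5b, RpS10a and RpS19b are known in Drosophila for expression in the germline. The partners RpL22, RpL37-1, RpS5a and RpS19a were among the members that rose at Early, and RpL10Ab was not called (0.61 ± 0.23, adjusted p = 0.119). Of 18 alternatives, the call was lost in 17 for RpS19a (0.49 ± 0.14, adjusted p = 0.0453), 11 for RpL37-1, 7 for RpL22 and 4 for RpS5a. None of the 6 passed edgeR's test over all 16 libraries in any comparison with CD (smallest adjusted p = 0.103, RpS19b at Mid), while DESeq2's Wald test called RpS19b lower at Mid and RpL22-like lower at Late. Without Late replicate 4, edgeR called 3 of them lower at Late, with fitted log2 fold changes of −3.75 for RpL22-like, −6.17 for RpL37-2 and −2.63 for RpS19b.

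RpL22-like was at 6.58, 8.25, 5.49 and 1.29 CPM in the CD libraries, at 0.121, 5.12, 2.13 and 0.918 CPM at Early, at 3.0, 1.23, 0.489 and 0.178 CPM at Mid and at 0.289, 0.626, 0.194 and 2.73 CPM at Late. CD replicates 1 to 3, Early replicate 2, Mid replicate 1 and Late replicate 4 were high, and every group overlapped with CD. The log2 fold change of RpL22-like at Late against CD was −2.48 ± 1.12 (SE, adjusted p = 0.131), beside 0.089 ± 0.13 for its partner RpL22 (adjusted p = 0.640), which was at 595 ± 44.5 CPM in CD and 633 ± 63.9 CPM at Late (SD, n = 4).

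RpL10Aa was at 4.75, 5.99, 2.99 and 1.90 CPM in the CD libraries, at 0, 9.71, 0.194 and 2.75 CPM at Early, at 1.41, 1.06, 0.263 and 0 CPM at Mid and at 0.0361, 0.362, 0 and 3.41 CPM at Late. Early replicate 2 was the highest library, and Early replicate 1, Mid replicate 4 and Late replicate 3 had 0 counts. The log2 fold change of RpL10Aa at Late against CD was −2.03 ± 1.71 (SE, adjusted p = 0.446), beside −0.18 ± 0.23 for its partner RpL10Ab (adjusted p = 0.593), which was at 1935 ± 690.2 CPM in CD and 1702 ± 185 CPM at Late (SD, n = 4).

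RpL37-2 was at 3.39, 3.92, 4.43 and 0.339 CPM in the CD libraries, at 0, 1.18, 0.194 and 0.852 CPM at Early, at 0.573, 0.340, 0.263 and 0 CPM at Mid and at 0, 0.0988, 0 and 1.90 CPM at Late. CD replicates 1 to 3 lay above all the other libraries, and CD replicate 4 lay among them. The log2 fold change of RpL37-2 at Late against CD was −2.58 ± 1.63 (SE, adjusted p = 0.298), beside 0.20 ± 0.13 for its partner RpL37-1 (adjusted p = 0.287), which was at 1072 ± 120.4 CPM in CD and 1236 ± 101 CPM at Late (SD, n = 4).

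RpS5b was at 5.51, 6.65, 5.39 and 0.746 CPM in the CD libraries, at 0.665, 2.45, 0.970 and 1.38 CPM at Early, at 2.78, 1.83, 0.339 and 2.92 CPM at Mid and at 0.903, 1.98, 1.46 and 3.2 CPM at Late. CD replicates 1 to 3 lay above all the others, and CD replicate 4 lay below most. The log2 fold change of RpS5b at Late against CD was −1.28 ± 0.72 (SE, adjusted p = 0.236), beside 0.016 ± 0.14 for its partner RpS5a (adjusted p = 0.941), which was at 1501 ± 251 CPM in CD and 1518 ± 96.1 CPM at Late (SD, n = 4).

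RpS19b was at 8.85, 7.45, 8.96 and 1.29 CPM in the CD libraries, at 0.544, 4.73, 1.10 and 2.43 CPM at Early, at 2.51, 1.32, 1.13 and 0.570 CPM at Mid and at 0.686, 1.65, 0.680 and 4.30 CPM at Late. CD replicates 1 to 3 were highest, followed by Early replicate 2 and Late replicate 4. The log2 fold change of RpS19b at Late against CD was −1.86 ± 0.81 (SE, adjusted p = 0.118), beside −0.11 ± 0.14 for its partner RpS19a (adjusted p = 0.611), which was at 1234 ± 211 CPM in CD and 1146 ± 68.0 CPM at Late (SD, n = 4).

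RpS10a was at 2.98, 1.04, 1.16 and 0.814 CPM in the CD libraries, at 0.302, 2.41, 0 and 1.57 CPM at Early, at 1.01, 0.552, 0 and 0.0712 CPM at Mid and at 0.0361, 0.198, 0 and 1.90 CPM at Late. CD replicate 1 and Early replicate 2 were highest, and Early replicate 3, Mid replicate 3 and Late replicate 3 had 0 counts. The log2 fold change of RpS10a at Late against CD was −1.48 ± 1.56 (SE, adjusted p = 0.536); its partner RpS10b was not analysed here.

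The 6 paralogues were high in several of the libraries that were high in a list of testis and germline genes. Their summed level was 32.1, 33.3, 28.4 and 6.37 CPM in CD, 1.63, 25.6, 4.59 and 9.90 CPM at Early, 11.3, 6.33, 2.48 and 3.74 CPM at Mid and 1.95, 4.91, 2.33 and 17.4 CPM at Late. That of the 26 listed genes, none of them a ribosomal protein gene, was 576, 427, 286 and 155 CPM in CD, 78.2, 834, 121 and 330.2 CPM at Early, 301, 173, 102 and 74.5 CPM at Mid and 60.6, 126, 47.1 and 425 CPM at Late. In each group the library highest in testis and germline transcripts was the highest or second highest in the 6 paralogues. None of the 25 tested genes of the list passed the test at Early, Mid or Late against CD (0, 6 and 3 at an unadjusted p under 0.05), and none of the 26 was at 0 in all libraries. The part of these transcripts in the departure of the paralogues was not tested.

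**Figure D4:**
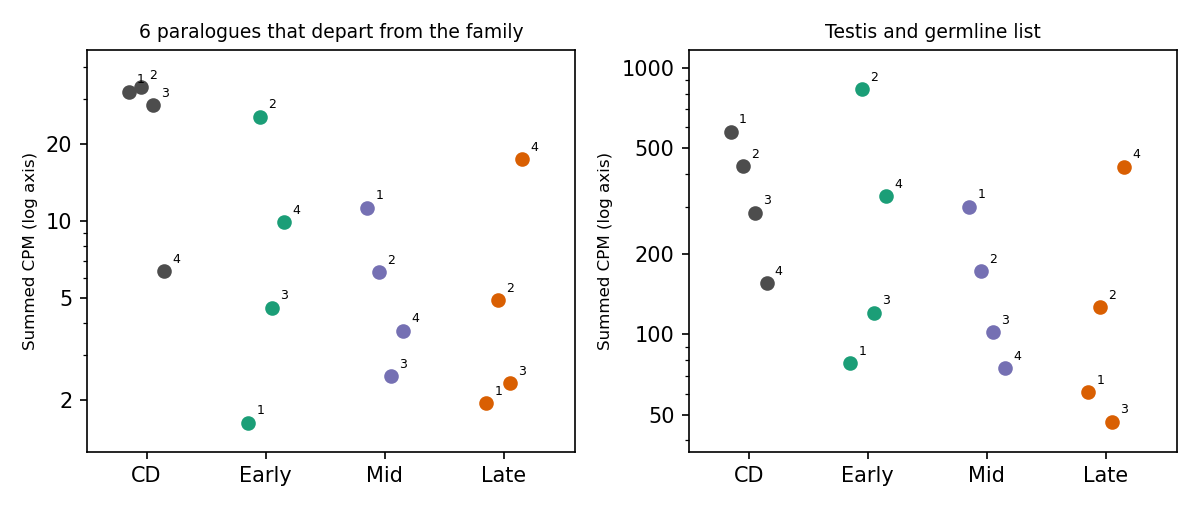
Summed CPM of the 6 paralogues that departed from the family (left) and of 26 testis and germline genes (right) in each library, on log axes, with the replicate number at each point. CD replicates 1 and 2, Early replicate 2 and Late replicate 4 were high in both panels. CD replicate 3 was high in the paralogues (28.4 CPM), but its list level (286 CPM) was below Early replicate 4 (330 CPM) and Mid replicate 1 (301 CPM). The 6 paralogues reached 33.3 CPM and the list 834 CPM.

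Leaving out the 6 departing paralogues and the -like genes, 75 members remained, and their log2 fold changes ran with annotated exonic length. This relation was chosen after the values were seen. The length is that of all annotated exons of a gene together, from a later genome build, and can exceed that of any single transcript. It ran from 288 bases (RpL39) to 3835 bases (RpL5). The 19 shortest genes, up to 686 bases, had a median log2 fold change of −0.26 at Late against CD, and the 19 longest, from 1195 bases, had 0.043. At Early the same medians were 0.50 and 0.62. Spearman's rho between length and log2 fold change over the 75 genes was 0.48 at Early, 0.54 at Mid and 0.54 at Late, against 0.028, 0.43 and 0.37 over the 11161 tested genes with a length. From Early to Late it was 0.32 over the 75 genes and 0.40 over all. The genes share the same libraries and are not independent.

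**Figure D5:**
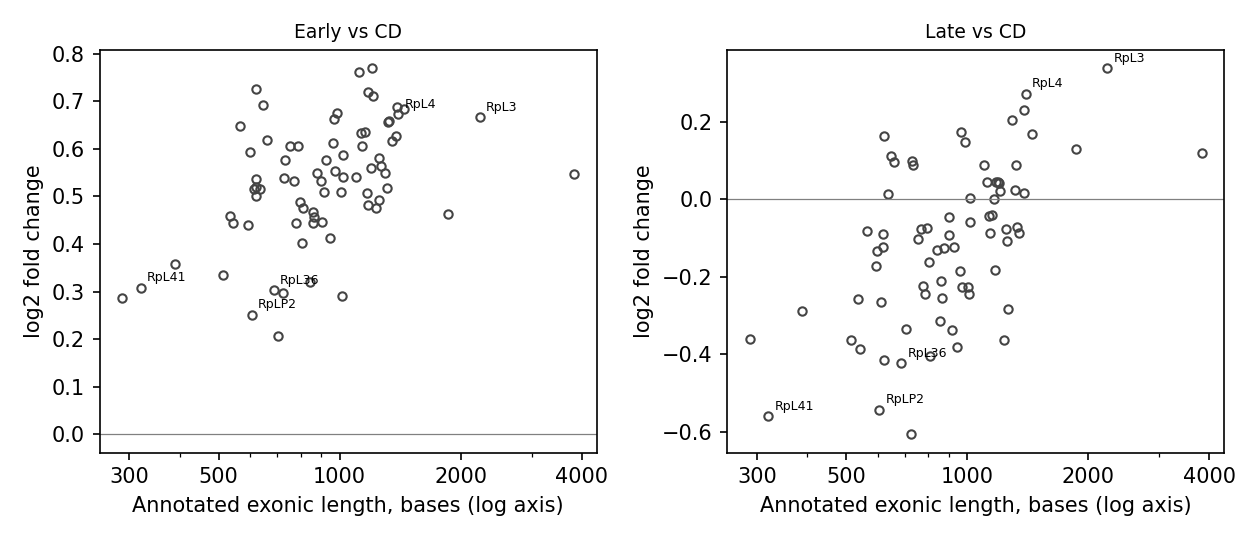
Log2 fold change against annotated exonic length (log axis, bases) of 75 ribosomal protein genes at Early (left) and at Late (right) against CD, each point a gene. At Late the shorter genes such as RpL41 (−0.56) lay lower than the longer RpL3 (0.34).

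Per kilobase of exon, the levels of these 75 genes were close together apart from a few. The median in CD was 1332 CPM per kilobase, with quartiles at 1041 and 1745. The lowest level was that of RpS15Ab (68.6) and the highest that of RpL41 (7463), and both held these places in all 4 groups. The median was 2032 at Early, 1605 at Mid and 1296 at Late. By chromosome, 13 members are on the X, 1 on the fourth chromosome and the others on the large autosomes. Of the X-linked members, 9 of 13 rose at Early (median 0.55) beside 25 of 71 on the autosomes (median 0.51), and 12 of 13 beside 56 of 71 fell from Early to Late. The 71 include the 6 low paralogues. The shares called among all X-linked and all autosomal genes are not given here, so these counts are not read as a difference between chromosomes.

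Genes for building ribosomes were called higher at Late. Each list count that follows stands beside the shares of all genes tested given above for the same comparison. Of 41 genes for ribosome assembly and RNA polymerase I, the enzyme that makes the large ribosomal RNAs, edgeR called 3 higher at Early, 7 at Mid and 27 at Late, and 0 lower in each (9, 18 and 30 at an unadjusted p under 0.05 in either direction). The medians were 0.14, 0.30 and 0.54. From Early to Late, 16 rose and 0 fell (median 0.41). With library totals alone, 30 rose at Late, where 21.3% of all genes tested rose. The median at Early was then −0.22, against −0.36 over all genes tested. At Early 0 rose and 1 fell with that scaling, where 3.02% of all genes tested rose and 8.81% fell. The largest values at Late were those of RIOK1, a kinase of small subunit maturation (1.13 ± 0.24, adjusted p = 0.00393), and Mat89Ba (1.05 ± 0.20, adjusted p = 0.00207). The smallest were those of Non3 (−0.089 ± 0.20, adjusted p = 0.760) and Rrp1 (0.099 ± 0.23, adjusted p = 0.770). Rrp1 of Drosophila is a DNA repair enzyme that came into the list by its symbol, and it passed the test in none of the 4 comparisons.

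The factors that work with the ribosome were mixed. Among 32 tested translation initiation factors, edgeR called 8 higher and 0 lower with a median log2 fold change of 0.31 at Early, 4 higher and 0 lower with a median log2 fold change of 0.23 at Mid and 6 higher and 2 lower with a median log2 fold change of 0.062 at Late, where 14.0% of all genes tested rose and 7.70% fell. eIF6, which keeps free large subunits from joining small ones, was highest in log2 fold change at Late (1.3 ± 0.16, adjusted p = 0.000241), followed by eIF2Bepsilon, part of the exchange factor of eIF2 (0.97 ± 0.15, adjusted p = 0.000616). With library totals alone, 0 were called at Early (3 at an unadjusted p under 0.05). The median was then −0.058, against −0.36 over all genes tested. With upper-quartile scaling the median at Late was −0.10, against −0.24 over all genes tested. The smallest were eIF3k (−0.60 ± 0.15, adjusted p = 0.0122) and eIF1, which helps to select the start codon (−0.42 ± 0.19, adjusted p = 0.137). Of 8 elongation and release factors, 3 rose at Early and 0 were called at Late (4 at an unadjusted p under 0.05). The translocation factor eEF2 had 0.70 ± 0.16 (adjusted p = 0.0179) at Early and 0.30 ± 0.16 (adjusted p = 0.209) at Late. The list leaves out eEF1alpha1 and eEF5, whose current identifiers have no row. Of 5 ribosome-associated proteins, 4 fell from Early to Late, among them sta, the small subunit protein whose symbol the rule does not take (−0.69 ± 0.20, adjusted p = 0.0234), and Nacalpha, which meets new chains at the exit tunnel (−0.64 ± 0.15, adjusted p = 0.00667). With library totals alone none of the 5 fell and 1 rose, where 4.34% of all genes tested fell and 37.1% rose.

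A list of 26 growth regulators held genes of the Tor and insulin pathways together with transcription factors of growth genes and stress regulators such as PEK, crc and Xrp1. Tor, S6k and InR were meant for the list but were matched to no row, so the counts leave them out. Of the 26, 8 rose and 1 fell at Late (median 0.33). The largest were PEK, a kinase of eIF2 (2.08 ± 0.34, adjusted p = 0.000991), and Myc, a regulator of ribosome synthesis (1.23 ± 0.24, adjusted p = 0.00283). The smallest were REPTOR-BP, a partner of a factor that Tor holds back (−1.06 ± 0.19, adjusted p = 0.00175), and Rheb, an activator of Tor (−0.31 ± 0.12, adjusted p = 0.0795). Of 11 genes, crc and Xrp1 again among them, that cells with a missing ribosomal protein gene are known to induce in discs, 6 rose and 0 fell at Late (median 0.82), led by Ilp8, a relaxin-like hormone that delays development (4.73 ± 1.11, adjusted p = 0.00777), and upd3, a cytokine (3.83 ± 0.94, adjusted p = 0.00962). In this list 10 genes had a log2 fold change above 0 and 1 below, and the smallest was −0.14.

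The other large machines of protein turnover are given side by side. Of 70 tested mitochondrial ribosomal protein genes, edgeR called 9 higher and 0 lower with a median log2 fold change of 0.34 at Early, 0 higher and 0 lower with a median log2 fold change of −0.14 at Mid (4 at an unadjusted p under 0.05) and 2 higher and 6 lower with a median log2 fold change of −0.20 at Late, where 14.0% of all genes tested rose and 7.70% fell, and 21 fell from Early to Late, where 10.1% of all genes did. Of 47 proteasome subunit genes, edgeR called 0 higher and 27 lower with a median log2 fold change of −0.78 at Early, 0 higher and 15 lower with a median log2 fold change of −0.77 at Mid and 0 higher and 33 lower with a median log2 fold change of −1.28 at Late, and 6 fell from Early to Late. With library totals alone, 0 mitochondrial ribosomal protein genes were called at Early (3 at an unadjusted p under 0.05). From Early to Late 3 were higher and 1 lower, where 37.1% of all genes tested were higher and 4.34% lower. With that scaling, proteasome genes were lower in 33 cases at Early, 1 at Mid and 32 at Late, and in 0 from Early to Late (0 at an unadjusted p under 0.05). The shares of all genes tested that were lower were then 8.81%, 1.29%, 4.28% and 4.34% in the same order. These comparisons share their libraries with those of the cytosolic family, and differences between the families were not tested.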

How the data were processed

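RNA from body-wall muscle was sequenced as stranded mRNA libraries with paired reads. Per the labels and the study's methods, the authors aligned the reads to dm3 with TopHat2 2.0.11 after base calling with CASAVA 1.8.4, and counted them per gene with featureCounts. The deposited values are raw counts, not normalized. The annotation release and the strand and multimapping settings of the counting are not given in the sources used here, and reads of near-identical copies cannot be assigned with certainty. Current symbols were matched by FlyBase identifier; 680 of the 15682 genes, with 8.76% of the counts, had none and stayed in the fit.

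Counts were tested with edgeR 4.0.16 (R 4.3.3): TMM scaling, filterByExpr (10 counts, 15 in total), and quasi-likelihood F tests in 1 model of all 16 libraries, with Benjamini-Hochberg adjustment over all 11607 genes tested and a threshold of 0.05. A standard error is the size of the log2 fold change divided by the square root of F. CPM are relative to TMM-scaled totals, and 0.5 CPM was added before logs and ratios. Exonic lengths are from the Ensembl annotation of a later genome build and gave no coordinates. The procedure was tested on simulated data.

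Alternatives were other scalings, filters, tests (DESeq2 1.42.0) and fits, a replicate block, and the omission of single libraries. Libraries of a group were compared for duplication, and every pair differed by more than sampling noise. The labels do not say what a replicate number shares, and same-numbered libraries did not deviate together. Library totals limit precision for genes near 1 CPM.

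Values in every library are given for paralogues that departed from the family, for the 3 members with the largest and the 3 with the smallest log2 fold change at Late among those averaging 100 CPM or more, and for RpS6, the stalk proteins and the ubiquitin fusions; RpL24, RpL7-like, RpLP0-like, RpS15Ab, RpL34a, RpL34b, RpS14a and RpS14b, and the members singled out by the size of a change, were chosen after their values were seen. From each list outside the family, at most 4 genes were to be named, those with the most extreme log2 fold changes at Late; eEF2, sta and Nacalpha were chosen for their roles after their values were seen. The members and all gene lists were chosen with earlier results of these data known.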

Additional observations from a re-analysis of the deposited data

Results flagged for a closer look

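The count of 68 members lower at Late than at Early stood out as a difference between 2 stages of HSD tested directly. 0 members were higher, and of all genes tested 10.1% were lower and 10.1% higher. With library totals alone 0 members were lower, and with a library left out the count was 15 to 66.

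In 96 groups of 4 libraries, 9 held a library far from the other 3 of its group, and chance gives about 1 in 20. Late replicate 4 was such a library for RpL10Aa (3.41 CPM), RpL22-like (2.73 CPM), RpL37-2 (1.90 CPM) and RpS10a (1.90 CPM), and it was also the Late library with the most testis and germline transcripts (425 CPM). CD replicate 1 was high for RpS10a at 2.98 CPM. Late replicate 2 was low for RpS5a at 1375 CPM, Mid replicate 2 was low for RpL4 at 2249 CPM, CD replicate 2 was low for RpL3 at 1889 CPM, and Late replicate 3 was high for RpL24-like at 348 CPM.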

How the results depend on the processing

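The 34 members called at Early became 17 with upper-quartile scaling, 21 with TMM computed without the ribosomal protein genes, 0 with library totals alone, 7 with no filter, 21 without the 20 genes with the most counts, 54 with DESeq2 and 0 in a fit to the 8 libraries (38 at an unadjusted p under 0.05), and ranged from 0 to 29 with a library left out. The 3 at Mid became 1, 5, 9 and 1 under the first 4 of these, 16 with DESeq2 and 0 in a fit to the 8 libraries (14 at an unadjusted p under 0.05), and ranged from 0 to 3. At Late, where 2 were higher and 1 lower, the balance turned to lower with upper-quartile scaling (6 called), a mean of at least 10 CPM (8), DESeq2 (10), the 8 libraries (1), without CD replicate 1 (11) and without Late replicate 4 (5). Library totals alone gave 9, all higher, where 21.3% of all genes tested were higher, and a library left out gave 0 to 11. From Early to Late, library totals alone gave 3 higher and 0 lower, where 37.1% of all genes tested were higher and 4.34% lower. No filter gave 32, and a library left out gave 15 to 66.

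With library totals alone the members' median was 0.16 at Early, 0.12 at Late and −0.074 from Early to Late. The median of all genes tested was then −0.36, 0.13 and 0.51. With a library left out, the medians were 0.38 to 0.56 at Early, 0.10 to 0.31 at Mid, −0.20 to −0.03 at Late and −0.71 to −0.52 from Early to Late. Of all genes called at Early, 70.5% were higher with TMM and 25.6% with library totals alone; from Early to Late the shares were 49.8% and 89.5%. The difference in share of counts was 0.693 to 2.05 percentage points at Early, 1.4 to 2.76 at Mid, 0.331 to 1.69 at Late and −0.649 to 0.00713 from Early to Late with a library left out, and −2.50 from Early to Late without the 20 most counted genes. The count of pairs whose ratio moved by more than 1 at Late was 4, 0 with 5 CPM added and 4 to 5 with a library left out. RpS10a at Early turned to 0.10 without CD replicate 1 and was −1.21 without Early replicate 2 and −2.06 with the replicate block, and library totals alone turned RpL22, RpS6 and RpL40 to 0.11, 0.054 and 0.049 from Early to Late. The cause was not tested.

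The replicate number as a block gave 33 members at Early, 3 at Mid, 2 at Late and 66 from Early to Late. The mean correlation of deviations was −0.0068 over the 24 same-numbered pairs and 0.0016 over the 72 others, so the numbers are not read as a pairing. Fewer than 5 CPM in most libraries limits what can be said of the 6 low paralogues.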
